A study of Mus musculus with 6 samples.

Results

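The genes described here are 9 that mark bile duct cells (cholangiocytes) or the simple-epithelium keratin network of the liver: Krt7, Krt8, Krt18, Krt19, Krt23, Epcam, Sox9, Spp1 and Cd24a. They were taken by symbol from the 6 deposited tables of liver transcripts, which together list 18253 symbols, and all 9 were found. Of these, 6 reached the level filter for testing (at least 1 FPKM in at least 3 libraries) and 3 lay below it. FPKM is a count of fragments divided by gene length and by library size. Levels of different genes are set side by side on that scale, but the gene lengths used are not given.

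All 6 libraries came from liver of C57BL/6 mice labelled as postnatal day 21. The mice had received alpha-naphthylisothiocyanate (ANIT), a toxicant that injures bile duct cells and causes cholestasis, in 3 libraries without and in 3 libraries with celastrol, a triterpenoid from a medicinal vine, for 5 days. No library came from mice without ANIT, so the values compare celastrol with ANIT alone and neither with normal liver. The labels do not say whether each library was 1 animal or a pool, and p-values measure the spread between these libraries, which may be technical.

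Keratins are intermediate filament proteins that assemble as obligate pairs of a type I and a type II chain. In the mature liver, hepatocytes are known to make keratin 8 and keratin 18, whereas bile duct cells also make keratin 7 and keratin 19. Injury to the ducts can call up a ductular reaction, in which cells carrying SOX9, EPCAM, osteopontin (the product of Spp1) and CD24 spread from the portal tracts.

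Estimated depth was 18940000 to 19840000 reads per library, and 15896 to 16400 symbols were listed. The 10 most abundant genes held between 20.3% and 21.9% of summed FPKM in ANIT libraries; the celastrol libraries, in replicate order, had 33.2%, 20.7% and 31.5%. Over all genes, 2652 of 10593 (25.0%) passed limma on log2(FPKM + 1) at an adjusted p of 0.05. Lower with celastrol were 2185 genes (20.6%), and higher were 467 (4.41%). The split was 793 higher and 1170 lower under median-ratio scaling, and 873 and 952 on quantile-normalized values. It was 389 and 3813 when rescaled to TPM, and 554 and 1748 with the 20 most abundant genes left out. The median difference of all tested genes was -0.17 on the log2(FPKM + 1) scale. It was -0.02 under median-ratio scaling, 0.01 on quantile-normalized values and -0.30 when rescaled to TPM. Hepatocyte markers (12 of 12 listed) were abundant. Of the defining transcripts of bile duct cells, Cftr and Sctr measured at most 0.05 FPKM under ANIT and were not listed in the 3 celastrol libraries. In RNA from whole liver, fewer cells of a type cannot be told apart from less RNA per cell.

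Of the 6 genes at or above the filter, 4 (Krt8, Krt18, Krt19 and Cd24a) fell with celastrol and none rose, against the 20.6% of all tested genes that were lower. Krt19 and Cd24a passed the filter only through the ANIT libraries, so they were tested only through the group where they were higher. Their adjusted p was 0.025 and 0.024 in limma without the filter. In the fit of all 18253 symbols without a filter, 5 of the 9 genes were lower, the fifth being Krt23, where 11.4% of all symbols were called (9.18% lower, 2.26% higher). In 7 of the 9 genes every celastrol library lay below every ANIT library, as it did for 24.1% of all symbols (31.5% without overlap in either direction). Among genes past the filter these shares were 36.6% and 44.9%. The exceptions were Sox9 and Spp1, whose groups overlapped.

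**Figure D1:**
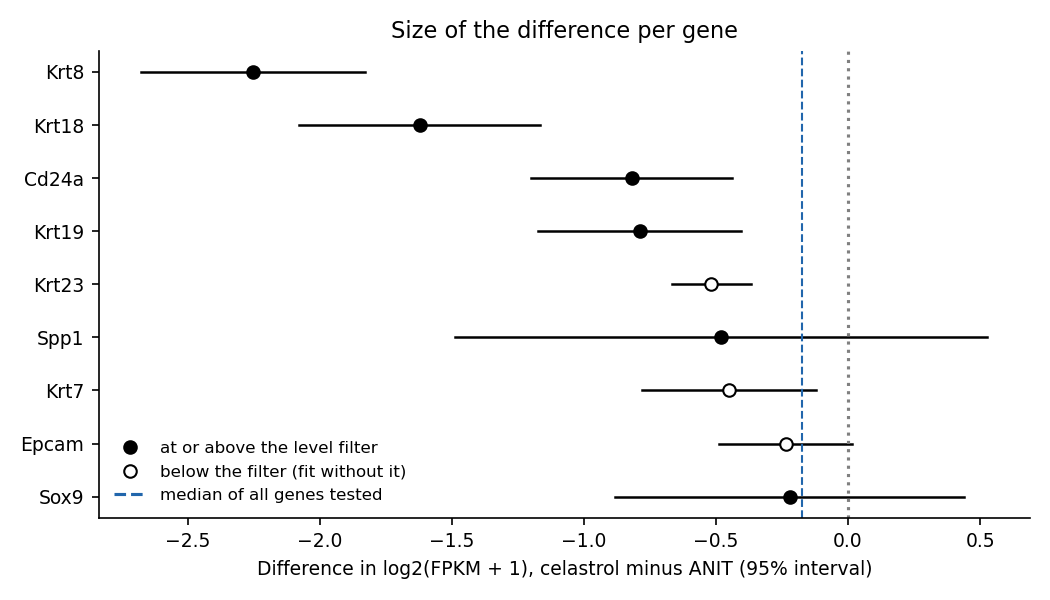
Difference in log2(FPKM + 1) between celastrol and ANIT for each of the 9 genes (points) with its 95% interval (lines) from limma; open points are genes below the level filter, taken from the fit without it. Krt8 (-2.25) and Krt18 (-1.62) lie farthest from 0, and the intervals of Sox9, Spp1 and Epcam include 0.

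Krt8 encodes the type II keratin of simple epithelia, and Krt18 its type I partner. Krt8 measured 429, 343 and 544 FPKM in ANIT replicates 1, 2 and 3 and 92.6, 91.7 and 85.2 FPKM in celastrol replicates 1, 2 and 3. The celastrol libraries lay close together and far below the ANIT libraries. The mean fell from 439 ± 101 to 89.8 ± 4.05 FPKM (n = 3 per group, SD), to 20.5% of the ANIT level, with a log2 difference of -2.25 (SE 0.18, adjusted p = 0.00052 in limma). By mean level Krt8 ranked 144th of all symbols with ANIT and 612th with celastrol.

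Krt18 measured 335, 266 and 422 FPKM under ANIT and 124, 96.0 and 106 FPKM under celastrol. All celastrol values were again below the lowest ANIT value. The mean fell from 341 ± 78.4 to 108.9 ± 14.3 FPKM (n = 3 per group, SD), to 31.9%, with a log2 difference of -1.62 (SE 0.20, adjusted p = 0.0021 in limma). Its rank went from 202 to 506. Both calls held without each library in turn and under each scaling tried.

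Krt8 (chromosome 15, positions 101996698 to 102004482 in mm10, minus strand) and Krt18 (positions 102028180 to 102032027, plus strand) are neighbours, 23.7 kb apart. They are transcribed away from each other's gene body, with no annotated gene lying wholly between them in GENCODE M21. An exon of Krt8 overlaps Gm36026 on the other strand, and the strand setting of the counting is not known, so reads of the 2 cannot be told apart. The 250 bases before the RefSeq start sites of these genes are shown because both genes fell, and those of Krt23 because its ratio between the groups was the largest; they are written 5′ to 3′ in the direction of transcription (RefSeq, GRCm38.p6). They lie at chr15:102004343-102004592 (minus strand), chr15:102027966-102028215 (plus strand) and chr11:99493121-99493370 (minus strand). Capitals mark matches on either strand to 3 motifs searched, which do not overlap here. The motifs were the promoter box TATAAA, the AP-1 site TGANTCA and the core TGGGAA read by the Notch effector RBPJ.
Krt8: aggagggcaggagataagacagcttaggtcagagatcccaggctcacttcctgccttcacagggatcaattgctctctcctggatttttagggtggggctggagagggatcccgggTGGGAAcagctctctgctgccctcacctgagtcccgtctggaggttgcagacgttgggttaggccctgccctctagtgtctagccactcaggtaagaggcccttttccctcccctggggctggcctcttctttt
Krt18: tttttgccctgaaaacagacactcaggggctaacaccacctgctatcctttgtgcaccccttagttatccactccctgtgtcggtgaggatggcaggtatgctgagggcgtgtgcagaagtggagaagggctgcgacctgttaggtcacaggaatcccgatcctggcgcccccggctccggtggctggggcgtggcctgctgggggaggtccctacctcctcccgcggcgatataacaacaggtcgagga
Krt23: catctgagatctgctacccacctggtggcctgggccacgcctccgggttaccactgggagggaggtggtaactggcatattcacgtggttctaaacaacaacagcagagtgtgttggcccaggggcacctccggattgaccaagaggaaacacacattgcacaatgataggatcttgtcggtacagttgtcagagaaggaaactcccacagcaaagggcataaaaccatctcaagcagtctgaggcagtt
The match in Krt8 is TGGGAA, starting 134 bases before the RefSeq start site. The RefSeq start sites of Krt8, Krt18 and Krt23 lie inside the GENCODE spans of these genes, so each window overlaps its gene. The match in Krt8 lies within that overlap, and is upstream only by the RefSeq start. The promoters of 6 of the 9 genes were searched (Krt7, Krt8, Krt18, Krt23, Epcam and Spp1). TGGGAA was found in 1 of the 6, against 21.6% of all 32851 promoters, and TATAAA in 1 (Spp1), against 12.4%. TGANTCA was found in none, against 6.75% of all promoters. These are descriptions of letters in a window and are no evidence of binding.

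The ratio of the pair was taken within each library. In the ANIT libraries the ratio of Krt8 to Krt18 was nearly constant, at 1.28, 1.29 and 1.29, although the level of each gene varied between these libraries. In the celastrol libraries it was 0.745, 0.956 and 0.801, so Krt18 had the higher FPKM in each. The mean ratio was 1.29 ± 0.00409 with ANIT and 0.834 ± 0.109 with celastrol (n = 3 per group, SD), a difference of -0.63 in the log2 ratio. The groups did not overlap (two-sided exact permutation p = 0.1, the smallest that 3 against 3 libraries allow). Because the ratio is taken within a library, scaling between libraries does not enter it.

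**Figure D2:**
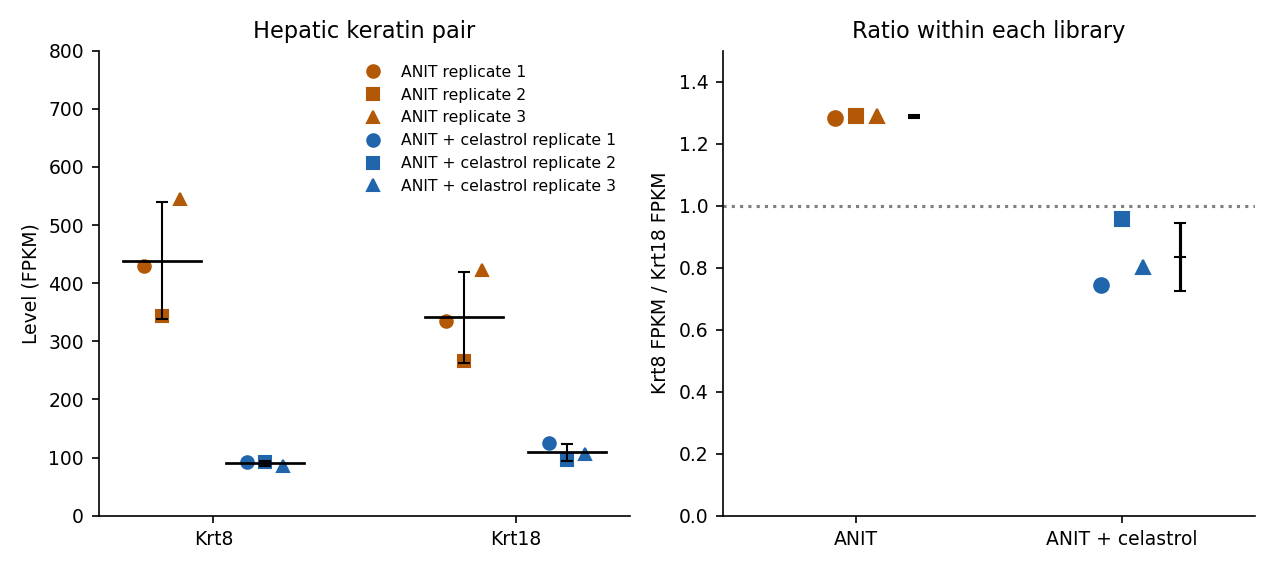
Left, FPKM of Krt8 and Krt18 in each library, with the mean and SD (n = 3 per group). Right, the ratio of the 2 values within each library with mean and SD, where the ANIT libraries sit at 1.28 to 1.29 and the celastrol libraries between 0.745 and 0.956, on the other side of the dotted line at 1.

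Hepatocytes make both chains, so markers of that cell type are given beside the pair. Of 12 tested hepatocyte markers 2 rose and 1 fell, against 4.41% higher and 20.6% lower among all tested genes. The median log2 difference of the 12 markers was -0.10. Their summed level was 46315 to 58480 FPKM under ANIT and 23636 to 32781 FPKM under celastrol. Alb (albumin), the main part of that sum under ANIT but not under celastrol, fell from 32513 ± 5321 to 6985 ± 2658 FPKM (n = 3 per group, SD; log2 difference -2.27, adjusted p = 0.0024 in limma). Hnf4a, the hepatocyte transcription factor, measured 177 to 204 FPKM under ANIT and 191 to 219 FPKM under celastrol (log2 difference 0.11, adjusted p = 0.56 in limma). Cyp2e1, a pericentral cytochrome, rose (log2 difference 1.63, adjusted p = 0.0054 in limma), as did Serpina1c, an antitrypsin gene with close paralogs (log2 difference 0.65, adjusted p = 0.028 in limma). The Serpina1c call was lost without any 1 ANIT library, without celastrol replicate 1 or 3, without the filter, with the replicate block and on quantile-normalized values (adjusted p from 0.052 to 0.29). The part of these differences in the keratin result was not tested.

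Krt19 encodes the smallest type I keratin and is a standard marker of bile duct cells (chromosome 11, 100140810 to 100148665, minus strand). It measured 1.38, 1.53 and 1.48 FPKM under ANIT and 0.39, 0.78 and 0.17 FPKM under celastrol. The ANIT libraries were tightly grouped and the celastrol libraries were spread over a wide range below them. The mean fell from 1.46 ± 0.0764 to 0.447 ± 0.309 FPKM (n = 3 per group, SD), with a log2 difference of -0.79 on the log2(FPKM + 1) scale, which understates changes near 1 FPKM (SE 0.17, adjusted p = 0.014 in limma). The ratio of the group means was 3.28. It no longer passed when ANIT replicate 2 was left out (adjusted p = 0.054) or celastrol replicate 1 (adjusted p = 0.057).

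Krt7 encodes a type II keratin of ducts and other simple epithelia (chromosome 15, 101411043 to 101430313, plus strand). It measured 0.43, 0.75 and 0.78 FPKM under ANIT and 0.16, 0.42 and 0.06 FPKM under celastrol, below the filter. The groups did not overlap, with the lowest ANIT value just above the highest celastrol value. In the fit without a filter its log2 difference was -0.45 (SE 0.14, adjusted p = 0.087 in limma), which did not pass. It passed without celastrol replicate 2 (adjusted p = 0.036). Krt7 overlaps the antisense gene Gm671, which is not listed in the tables.

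Krt23 encodes a less studied type I keratin of epithelial cells (chromosome 11, 99477974 to 99493137, minus strand). It measured 0.51, 0.53 and 0.58 FPKM under ANIT and 0.07, 0.13 and 0.03 FPKM under celastrol. The ANIT values differed little, and every celastrol value was far below them. In the fit without a filter it fell, with a log2 difference of -0.52 (SE 0.06, adjusted p = 0.0061 in limma), and kept its call without each library in turn (adjusted p at most 0.049). At the GENCODE exon length of this gene its values were close to whole reads (within 0.16 of a read). They came to about 15, 16 and 18 reads with ANIT and 2, 4 and 1 with celastrol. The summed ratio of 49 to 7 reads, corrected for depth, was 7.11 (95% exact binomial interval 3.20 to 18.6, covering counting error only). Krt23 thus had the largest fall of the 9 genes by ratio, on very few reads.

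Epcam encodes an adhesion molecule of the bile duct and progenitor cell surface (chromosome 17, 87635979 to 87651129, plus strand). It measured 0.51, 0.75 and 0.53 FPKM under ANIT and 0.32, 0.50 and 0.25 FPKM under celastrol. The highest celastrol value lay just below the lowest ANIT value. Without a filter its log2 difference was -0.24 (95% interval -0.49 to 0.02, adjusted p = 0.20 in limma), which did not pass.

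Cd24a encodes a small surface glycoprotein of ductal progenitors that is also made by immature blood cells (chromosome 10, 43578284 to 43584265, plus strand). It measured 1.55, 1.96 and 2.36 FPKM under ANIT and 0.72, 0.93 and 0.39 FPKM under celastrol. No celastrol value reached the ANIT range. The mean fell from 1.96 ± 0.405 to 0.68 ± 0.272 FPKM (n = 3 per group, SD), with a log2 difference of -0.82 (SE 0.16, adjusted p = 0.012 in limma). The call held without each library in turn (adjusted p at most 0.046).

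Within the celastrol group Krt7, Krt19, Krt23, Epcam and Cd24a shared 1 order. In 5 of these 5 genes replicate 2 was the highest of the celastrol libraries and replicate 3 the lowest. The summed levels of macrophage, B cell, mesothelial and pancreatic acinar markers had the same order, as did those of endothelial markers (68.7, 90.7 and 50.8 FPKM in celastrol replicates 1, 2 and 3) and erythroid markers (70.3, 229 and 51.8 FPKM). Those of hepatocyte, stellate cell and neutrophil markers had other orders. Celastrol replicate 2 was also the library whose 10 most abundant genes took the smallest share of the celastrol group. The part of library makeup in these values was not tested.

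Other cells that can carry these transcripts were checked by their markers. Mesothelial cells also make keratins 7 and 19. Their other listed markers summed to 0.48 to 2.23 FPKM under ANIT and 0.42 to 0.75 FPKM under celastrol, and each was below the filter. Of these Lrrn4, named after its values were seen, measured 0.78, 0.63 and 0.27 FPKM under ANIT and 0.06, 0.09 and 0.13 FPKM under celastrol, and was lower in the fit without a filter (adjusted p = 0.049 in limma). The part of mesothelial cells in the Krt7 and Krt19 values was not tested. B cell markers, of interest for Cd24a, summed to 0.80 to 1.67 and 0.75 to 2.60 FPKM, with 0 of 8 listed genes reaching the filter. Erythroid markers summed to 230.2 to 429 FPKM under ANIT and 51.8 to 229 FPKM under celastrol. Their median log2 difference was -1.58. Of 6 tested, 1 rose (Klf1, an erythroid transcription factor, log2 difference 0.65, adjusted p = 0.0069 in limma) and none passed as lower. Among all tested genes 4.41% were higher and 20.6% lower. The count of lower erythroid markers depended on the setting. It was 4 without celastrol replicate 2, 3 with the replicate block, and 1 with non-robust variance, a mean of at least 5 FPKM, rescaling to TPM or the 20 most abundant genes left out. Hba-a1, an alpha globin, had a log2 difference of -1.67 (adjusted p = 0.054 in limma), and its adjusted p was 0.0038 without celastrol replicate 2 and 0.0096 with the block. Hbb-bs, a beta globin, had an adjusted p of 0.081 in limma, 0.0059 without celastrol replicate 2 and 0.0093 with the block. The part of blood cells in the Cd24a result was not tested.

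**Figure D3:**
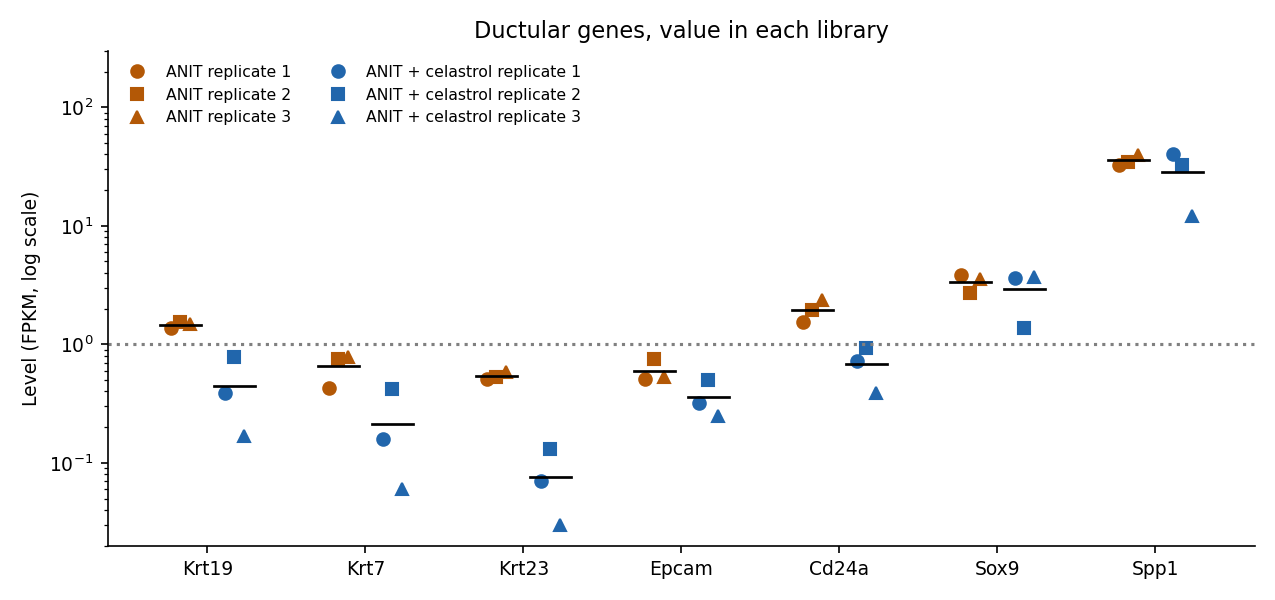
FPKM on a log axis for the 7 genes other than the keratin 8 and 18 pair, 1 symbol per library, with bars at the group means; the dotted line is 1 FPKM. The groups separate for Krt19, Krt7, Krt23, Epcam and Cd24a, with celastrol replicate 2 (square) the highest celastrol library in each, and overlap for Sox9 and Spp1.

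Sox9 encodes the transcription factor that marks bile duct and periportal progenitor cells (chromosome 11, 112782224 to 112787760, plus strand). It measured 3.82, 2.72 and 3.56 FPKM under ANIT and 3.66, 1.36 and 3.70 FPKM under celastrol. Celastrol replicates 1 and 3 lay inside the ANIT range, and replicate 2 was the lowest of the 6 libraries. The means were 3.37 ± 0.575 and 2.91 ± 1.34 FPKM (n = 3 per group, SD), and the gene did not pass (log2 difference -0.22, 95% interval -0.88 to 0.44, adjusted p = 0.59 in limma). Without celastrol replicate 2 the difference changed sign, to 0.11. The libraries with low Sox9 and low Krt7 were thus different ones, replicates 2 and 3.

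Spp1 encodes osteopontin, a secreted phosphoprotein of bile duct cells and activated macrophages (chromosome 5, 104435118 to 104441050, plus strand). Its exons overlap those of Gm42793 on the same strand, which the tables do not list. It measured 32.7, 34.7 and 39.8 FPKM under ANIT and 40.2, 32.6 and 12.1 FPKM under celastrol. Celastrol replicate 3 stood alone below the other libraries, and the highest value of all 6 was that of celastrol replicate 1. The means were 35.7 ± 3.67 and 28.3 ± 14.5 FPKM (n = 3 per group, SD), and the gene did not pass (log2 difference -0.48, 95% interval -1.49 to 0.53, adjusted p = 0.43 in limma). Without celastrol replicate 3 the difference was 0.02. Macrophage markers summed to 187.6 to 432 FPKM under ANIT and 331 to 460 FPKM under celastrol. Of 14 tested, 1 fell (Trem2, a receptor of lipid-laden macrophages, log2 difference -0.68, adjusted p = 0.037 in limma) and none rose. Among all tested genes 20.6% were lower and 4.41% higher. Trem2 did not pass in the unfiltered fit, under either scaling given next, or when ANIT replicate 2, ANIT replicate 3, celastrol replicate 1 or celastrol replicate 3 was removed (adjusted p between 0.062 and 0.12). The macrophage counts were 0 lower with 1 higher under median-ratio scaling, 0 lower with 3 higher on quantile-normalized values, and 0 lower with 4 higher without ANIT replicate 3. Of 6 tested stellate cell and fibroblast markers none passed limma (the smallest adjusted p was 0.11, and 1, Col1a1, had an unadjusted p under 0.05), and their sum was also lowest in celastrol replicate 3 among the celastrol libraries (18.7 FPKM, against 61.2 and 58.3 FPKM). The part of these cells in the Spp1 values was not tested.

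In order of mean level, both groups ran from the hepatic pair through Spp1 and Sox9 to the low ductal genes. With ANIT the order was Krt8, Krt18, Spp1, Sox9, Cd24a, Krt19, Krt7, Epcam and Krt23. Krt7 (0.653 ± 0.194 FPKM), Epcam (0.597 ± 0.133 FPKM) and Krt23 (0.540 ± 0.0361 FPKM) overlapped each other (SD, n = 3), as did Krt8 and Krt18. With celastrol Krt18 stood above Krt8, and Epcam (0.357 ± 0.129 FPKM) stood above Krt7 (0.213 ± 0.186 FPKM) and Krt23 (0.0767 ± 0.0503 FPKM). In GENCODE M21 the joined exons of Krt7 hold 7049 bases, against 2195 for Epcam and 1565 for Krt23. The lengths behind the FPKM are not given, so the order of genes at close levels depends on them.

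The tables list 13 further keratin symbols, each below the filter, with a sum of 0.89 to 1.15 FPKM under ANIT and 0.51 to 0.74 FPKM under celastrol. The most abundant, Krt10, a keratin of stratified epithelia, measured 0.56 to 0.66 FPKM under ANIT and 0.31 to 0.43 FPKM under celastrol (adjusted p = 0.10 in limma without a filter), in the range of Krt7 and Krt23 under ANIT and with a higher mean than either under celastrol. Krt80, a keratin of many epithelia named here after its values were seen, measured 0.18, 0.18 and 0.17 FPKM under ANIT and 0.06, 0 and 0.03 FPKM under celastrol, and fell in the fit without a filter (adjusted p = 0.014 in limma).

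Other genes of the bile duct epithelium were taken from a list of 34, of which 33 were listed and 13 tested. Of the 13, 7 fell and 1 rose, against 20.6% lower and 4.41% higher among all tested genes, with a median log2 difference of -0.34. Cdh1, the E-cadherin of epithelial junctions, fell from 21.8 ± 3.30 to 6.01 ± 0.865 FPKM (n = 3 per group, SD; log2 difference -1.70, SE 0.14, adjusted p = 0.00057 in limma). Tm4sf4, a tetraspanin-like membrane protein, fell from 218 ± 12.2 to 75.8 ± 10.2 FPKM (log2 difference -1.52, adjusted p = 0.00090 in limma). Sorbs2, a cytoskeletal adaptor, had a log2 difference of -1.19 (adjusted p = 0.0016 in limma). Several of these genes are also made by hepatocytes. The other members that fell were Anxa4, Dsg2, Slc4a2 and Slc10a2, the last being the apical bile acid transporter of bile duct cells. The 8 calls became 2 higher and 3 lower under median-ratio scaling and on quantile-normalized values. Of all 10593 tested genes, 793 and 873 were higher and 1170 and 952 lower in these settings. The 8 calls became 1 higher with 3, 4 and 4 lower without ANIT replicate 2, ANIT replicate 3 and celastrol replicate 1. There 1010, 1528 and 909 of all tested genes were lower.

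Below the filter, 20 genes of that list remained. In 8 of them all celastrol values were below all ANIT values, and in 0 of them above. The share below was 24.1% over all symbols and 36.6% among genes past the filter. It is not given for symbols below the filter alone, so the 8 have no share of like genes beside them. The genes that passed without a filter, named after their values were seen, were Mmp7, Cldn7, Prom1 and Cldn4. In that fit 9.18% of all symbols were lower. Mmp7, a matrix protease of injured ducts, measured 0.50, 0.49 and 0.37 FPKM under ANIT and 0.05 FPKM in celastrol replicate 1, and was not listed in the other celastrol libraries (adjusted p = 0.0046 in limma). Prom1, a progenitor surface protein, measured 1.33, 2.08 and 0.72 FPKM under ANIT and 0.17, 0.33 and 0.08 FPKM under celastrol (adjusted p = 0.033 in limma). The claudins Cldn4 (0.46, 0.51 and 1.37 FPKM under ANIT, at most 0.08 FPKM under celastrol) and Cldn7 (0.52 to 0.69 against 0.16 to 0.24 FPKM) had limma-adjusted p of 0.044 and 0.020.

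Partners of the keratin network, a list of 21 plakins, desmosome proteins, other intermediate filaments and keratin-binding proteins, had 17 tested genes. Of these 10 fell and none rose, against the 20.6% of all tested genes that were lower, and the median log2 difference was -0.41. Ppl (periplakin), a cytolinker that binds keratin filaments, measured 31.5, 26.3 and 25.1 FPKM under ANIT and 2.22, 2.44 and 2.27 FPKM under celastrol. It fell from 27.6 ± 3.38 to 2.31 ± 0.115 FPKM (n = 3 per group, SD; log2 difference -3.11, SE 0.11, adjusted p = 1.6e-05 in limma), further on this scale than Krt8 itself. Pkp2 (plakophilin 2) and Dsp (desmoplakin), which tie keratins to desmosomes, had log2 differences of -0.76 and -0.99 (limma-adjusted p of 0.0029 and 0.0048). Plec (plectin), a plakin that binds many filament types, measured 9.96 to 14.6 FPKM under ANIT and 8.36 to 11.3 FPKM under celastrol (adjusted p = 0.51 in limma). Vim, the mesenchymal filament vimentin, did not pass (log2 difference -0.35, adjusted p = 0.34 in limma). The count of 10 was 6 under median-ratio scaling and 5 on quantile-normalized values. Of all 10593 tested genes, 1170 and 952 were lower in these settings, against 2185 in the main fit. The count was 5, 6, 5 and 6 without ANIT replicate 2, ANIT replicate 3, celastrol replicate 1 and celastrol replicate 3. There 1010, 1528, 909 and 1303 of all tested genes were lower.

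The Notch pathway, which directs bile duct fate upstream of Sox9, was represented by 9 tested genes of a list of 16 with ductal transcription factors. Of these, 2 fell and 1 rose, with a median log2 difference of -0.06; 2 of 9 is near the 20.6% of all tested genes that were lower. Hes1, a Notch-induced repressor, fell from 13 ± 2.82 to 3.94 ± 0.728 FPKM (n = 3 per group, SD; log2 difference -1.49, SE 0.17, adjusted p = 0.0017 in limma). The receptor Notch2 fell from 6.18 ± 1.08 to 3.64 ± 0.265 FPKM (n = 3 per group, SD; log2 difference -0.62, adjusted p = 0.014 in limma), a call lost without ANIT replicate 2 (adjusted p = 0.052). Onecut1, which encodes HNF6 and also stands in the bile duct list, was the gene that rose, from 1.14 ± 0.54 to 4.54 ± 0.714 FPKM (n = 3 per group, SD; log2 difference 1.40, SE 0.19, adjusted p = 0.0028 in limma). The ligand Jag1 measured 0.56 to 0.74 FPKM under ANIT and 0.56 to 0.63 FPKM under celastrol.

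Receptors, proteases and the cross-linker of osteopontin formed a list of 15 genes, of which 9 were tested. Of these 3 fell, the integrin subunits Itgb1, Itgav and Itgb5 (log2 differences of -0.62, -0.42 and -0.50, limma-adjusted p of 0.015, 0.016 and 0.027), and none rose. This count of 3 of 9 stands beside the 20.6% of all tested genes that were lower. The median of the list was -0.16, close to that of all tested genes. The 3 falls were lost on quantile-normalized values and without ANIT replicate 2 or celastrol replicate 1, and 1 fell and 1 rose under median-ratio scaling. Cd44, another osteopontin receptor, did not pass (log2 difference -0.16, adjusted p = 0.70 in limma).

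Genes of hepatic progenitors and ductular reaction formed a list of 14, of which 6 were tested. Of these 2 were lower and 1 higher, against 20.6% and 4.41% of all tested genes, and the median log2 difference was -0.29. Of the 3 called genes, Afp reached 1 FPKM only in the ANIT libraries and Axin2 only in the celastrol libraries. Both were thus tested only through the group where they were higher (adjusted p of 0.024 and 0.032 in limma without the filter). Tnfrsf12a, the receptor of the progenitor mitogen TWEAK, fell from 59.3 ± 12.7 to 9.0 ± 1.24 FPKM (n = 3 per group, SD; log2 difference -2.58, SE 0.17, adjusted p = 0.00024 in limma). Afp, the fetal albumin-like protein, fell from 1.87 ± 0.71 to 0.507 ± 0.132 FPKM (n = 3 per group, SD; log2 difference -0.91, adjusted p = 0.012 in limma). Axin2, a target of Wnt signalling, rose (log2 difference 0.69, adjusted p = 0.018 in limma), a call lost without ANIT replicate 2 or 3 (adjusted p of 0.058 and 0.053). Met, the hepatocyte growth factor receptor, did not pass (adjusted p = 0.78 in limma).

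**Figure D4:**
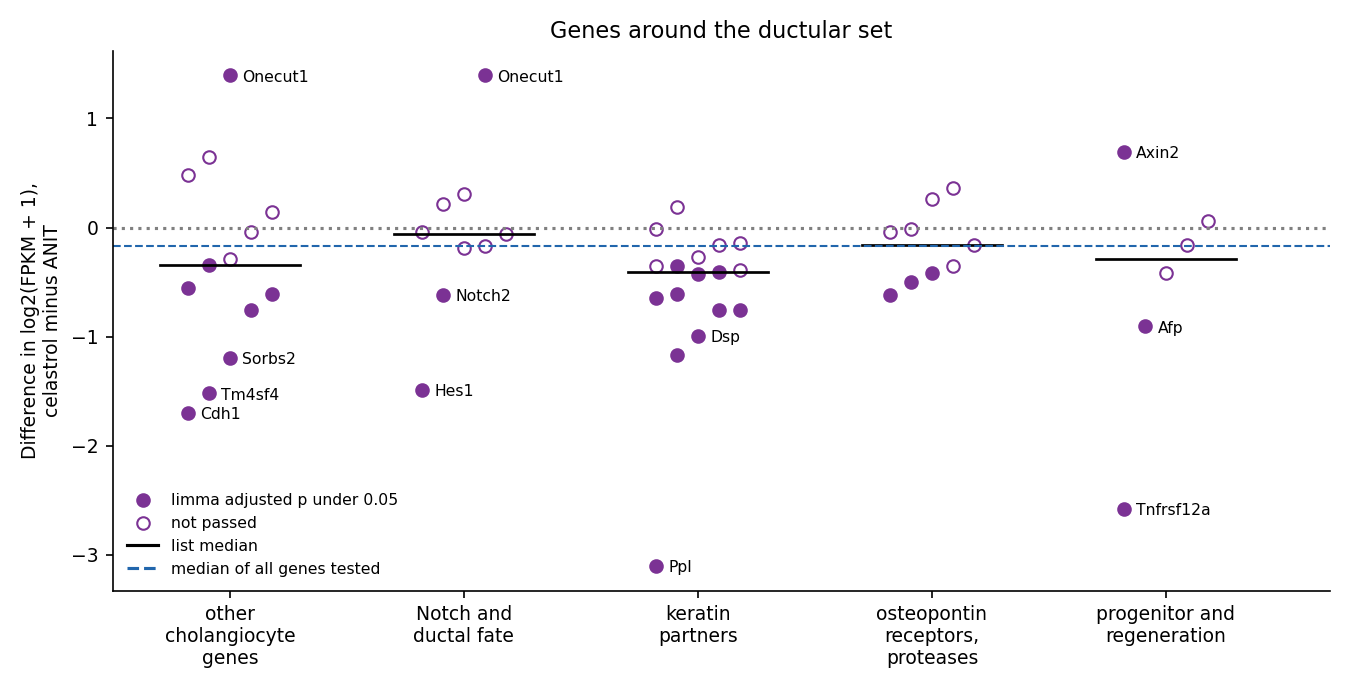
Difference in log2(FPKM + 1) between celastrol and ANIT for each tested gene of 5 lists (points; filled where limma adjusted p was under 0.05), with each list's median (black bar) and the median of all tested genes (dashed). Ppl and Tnfrsf12a lie lowest, Onecut1 highest, and the keratin partners have the lowest list median (-0.41).

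The genes whose levels over the 6 libraries were most like those of Krt8, by Pearson correlation on log2(FPKM + 1), were Bag2, a chaperone cofactor (r = 0.998), Ly6d, a surface protein (r = 0.998), and Rhoc, a small GTPase (r = 0.997). For Krt19 they were Psmc3, a proteasome subunit, Txnl4a, a splicing factor, and Mpp1, a membrane scaffold (r of 0.9996, 0.999 and 0.998). For Spp1 they were Dnajc14, Ctgf (a matrix protein) and Zfp747, each with r = 0.98. These are descriptions over 6 libraries in 2 groups and carry no test. For Krt8, 587 of 10592 genes exceeded an r of 0.95, and 798 did for Krt19, so likeness to either gene is common, whereas 15 genes exceeded it for Spp1.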

How the data were processed

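RNA sequencing of liver gave 1 table of gene symbols and FPKM per library (3 ANIT, 3 ANIT plus celastrol), with groups and replicate numbers from the titles. The deposited values are FPKM computed by the authors, per the file headers. Per the submitters' processing notes, HISAT2 and featureCounts were used with mm10. The sources used here give no versions, annotation, gene lengths or strand setting. No zeros were listed, and a symbol missing from a table was set to 0. 2 repeated symbols, names turned into dates, were left out.

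Testing took genes that reached 1 FPKM in 3 or more libraries and used limma 3.58.1 on log2(FPKM + 1) (R 4.3.3, trend, robust variance, Benjamini-Hochberg adjustment over all genes). Genes below the filter were taken from the same fit without it. The fit was tested on simulated data. Depth was read off the spacing of low FPKM values in genes that have 1 transcript in GENCODE M21. Exact permutation tests used scipy 1.17.1. The 9 genes and the gene lists were chosen with earlier results of these data known. Gene coordinates are those of GENCODE M21 in mm10. Named genes are the 9, any other keratin above 1 FPKM (there was none), the 3 of each list with the smallest p, every gene that changed where a list had at most 5, and the 3 most correlated with Krt8, Krt19 and Spp1. Genes named beyond this rule (such as Hnf4a, Plec, Vim, Jag1, Cd44, Met, Cftr, Sctr and Krt10) were chosen after their values were seen. Markers of hepatocytes, macrophages, neutrophils, B cells, erythroid, mesothelial, stellate, endothelial and pancreatic acinar cells were summarised. Alternatives were a pseudocount of 0.1, no filter, a mean of at least 5 FPKM, non-robust variance, a block for replicate number, 4 other scalings and each library left out.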

Additional observations from a re-analysis of the deposited data

How the results depend on the processing

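Of the 9 genes, 4 were called in the filtered fit, 5 without a filter and 2 (Krt8 and Krt18) among genes with a mean of at least 5 FPKM, where 3 of the 9 were tested. All these calls were lower with celastrol. Over all genes in these fits, 2185 of 10593, 1676 of 18253 and 1862 of 6446 were called lower, in the same order. The 4 calls were made under each scaling and variance setting tried, and 3 or 4 when 1 library was left out. Leaving out 1 library moved the log2 difference of Sox9 between -0.39 (without celastrol replicate 3) and 0.11 (without celastrol replicate 2), and that of Spp1 between -0.81 (without celastrol replicate 1) and 0.022 (without celastrol replicate 3), so both changed sign. The count of all called genes was 4202 when rescaled to TPM (389 higher and 3813 lower), and between 1127 and 3841 when 1 library was left out. The cause was not tested. The difference in the log2 ratio of Krt8 to Krt18 was between -0.74 and -0.56 with 1 library left out, where 2 against 3 libraries allow no exact permutation p below 0.2.

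Replicate numbers are shared between the groups, but deviations of same-numbered libraries correlated at 0.15, 0.23 and -0.092, so the numbers were not taken as pairs. With the replicate block 2585 genes and the same number of the 9 genes (4) were called, and the log2 ratio difference was -0.63 (exact sign-flip p = 0.25, the smallest 3 pairs allow). Genes well below 1 FPKM (Krt7, Krt23 and Epcam) rest on few reads, and their log2(FPKM + 1) differences understate ratios. Near-identical copies, such as the processed pseudogene Krt8-ps, may share reads with a gene.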

Other observations

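Neutrophil markers rose in 4 of 7 tested cases and fell in none, against 4.41% higher and 20.6% lower among all tested genes. Their summed levels were 35.1 to 60.4 FPKM under ANIT and 73.7 to 102 FPKM under celastrol. Ngp, a granule protein of immature neutrophils, measured 0.14, 0.40 and 0.04 FPKM under ANIT and 2.17, 1.5 and 4.36 FPKM under celastrol (log2 difference 1.56, SE 0.28, adjusted p = 0.0091 in limma). Ngp reached 1 FPKM only in the celastrol libraries, so it entered that count only through the group where it was higher. Its adjusted p was 0.018 in limma without the filter. The calls of S100a8, S100a9 and Ly6g (limma-adjusted p of 0.031, 0.039 and 0.031) were each lost without the filter and without several single libraries (adjusted p up to 0.11). The count of 4 was 2 without the filter, rescaled to TPM or without ANIT replicate 1, and 1 without ANIT replicate 3, celastrol replicate 1 or celastrol replicate 3. Endothelial markers rose in 1 of 9 tested cases and fell in none, against the same shares of all tested genes. The gene that rose was the scavenger receptor Stab2 (log2 difference 0.65, adjusted p = 0.019 in limma), a call lost without celastrol replicate 1 (adjusted p = 0.057). The count of higher endothelial markers was 2 under median-ratio scaling and 3 on quantile-normalized values, where 793 and 873 of all 10593 tested genes were higher. Their sum was 39.4 to 63.2 FPKM under ANIT and 50.8 to 90.7 FPKM under celastrol. Of the listed pancreatic acinar markers, Cela1 measured 4.37 to 7.81 FPKM and did not pass (adjusted p = 0.080 in limma), and the others measured at most 0.31 FPKM. Cela1 was higher under median-ratio scaling and on quantile-normalized values. Cela2a, named after its values were seen, was not listed in the ANIT libraries and measured 0.24, 0.31 and 0.12 FPKM under celastrol. It was higher in the fit without a filter (adjusted p = 0.024 in limma), where 2.26% of all symbols were higher. Lgr5, a Wnt target of pericentral hepatocytes named after its values were seen, measured 0.26, 0.35 and 0.22 FPKM under ANIT and 1.13, 1.62 and 0.91 FPKM under celastrol, and rose in the fit without a filter (adjusted p = 0.015 in limma).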
